A study of Mus musculus with 18 samples.

Results

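The response of mouse bone marrow-derived macrophages to 6 h of lipopolysaccharide (LPS) was described from 4 RNA-seq libraries of a series of 18, namely the 2 labelled LPS for 6 h and the 2 labelled untreated in the stimulation table, over all genes of that table. The cells were wild-type C57BL6/J bone marrow cells kept for 7 days in DMEM with serum (80%) to which L929-conditioned medium (20%) was added, so the LPS-treated and the untreated macrophages shared strain, medium and culture time. L929-conditioned medium is a source of M-CSF, the growth factor of the macrophage lineage. The same table holds 2 libraries of macrophages given IL-4 for 6 h, which were used in the estimate of the spread and for comparison. The series as a whole asked how glutamine metabolism bears on transcription in endotoxin-tolerant macrophages, and its other libraries were not used here. The labels state neither the dose nor the source of LPS, and they do not say whether replicates are separate animals or cultures, so p-values measure only the spread between these libraries.

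LPS is the endotoxin of the outer membrane of Gram-negative bacteria. CD14 and MD-2 (encoded by Ly96) present it to Toll-like receptor 4 (TLR4), which signals through MyD88 and TIRAP to NF-kB and MAP kinases, and through TRAM and TRIF (Ticam2 and Ticam1) to IRF3 and the interferon-β gene. Interferon-β then acts back on the cells through its receptor and JAK-STAT signalling, so that a macrophage a few hours after LPS expresses an inflammatory programme and an interferon programme together, along with inhibitors of both.

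The LPS libraries held 36349307 and 34838593 gene counts, against 37377994 and 39057223 in the untreated libraries. Macrophage genes were abundant in all 4: the 18 macrophage markers summed to 21300 and 20600 CPM (counts scaled to a common library size with edgeR's TMM factors) with LPS and to 16500 and 15600 CPM untreated. The summed levels of the marker lists of other cells were lower. They are read against the share of all genes that differed between LPS-treated and untreated macrophages at a Benjamini-Hochberg adjusted p under 0.05 in edgeR's quasi-likelihood F test, the threshold used throughout for writing that a gene rose or fell: 22.8% were higher and 29.4% lower with LPS. The 8 stromal markers summed to 134 and 113 CPM with LPS, against 124 and 126 CPM untreated; 1 of 7 tested, Pdgfrb, rose. The 6 endothelial markers summed to 32.4 and 25.7 CPM with LPS and 35.8 and 32.9 CPM untreated, with Cdh5 higher and Kdr and Pecam1 lower. The 8 neutrophil markers summed to 17.9 and 12.9 CPM with LPS, against 4.27 and 3.64 CPM untreated, of which S100a8, the one of 4 tested that rose, made 15.2 and 10.4 CPM with LPS and 1.54 and 1.5 CPM untreated; Ly6g was at 0. The 7 dendritic cell markers summed to 5.36 and 4.89 CPM with LPS, against 1.08 and 1.03 CPM untreated, of which Xcr1 made 4.91 and 4.23 CPM with LPS and 0.312 and 0.352 CPM untreated. Mast cell, lymphocyte and erythroid markers summed to 1.2 CPM or less in every library, with Tpsb2, Cma1, Cd3g and the globins Hba-a1, Hbb-bs and Hbb-bt at 0. The part of these cells in the results was not tested. In such bulk samples a smaller number of cells that express a gene and less of its RNA per cell cannot be told apart.

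Of 12506 genes tested, 6536 (52.3%) were called by that test. Of these, 2856 (22.8% of genes tested) were higher and 3680 (29.4%) lower with LPS. Changes over 2-fold were made by 1418 genes that rose (11.3%) and 2082 that fell (16.6%), and the rises reached further: 192 genes were higher by over 16-fold and 94 lower by that much, and 65 and 20 by over 64-fold. The 2 LPS values lay above both untreated values for 4105 genes (32.8%) and below both for 5218 (41.7%). The median log2 fold change over all genes tested was -0.10, with the middle 50 percent of genes between -0.74 and 0.43.

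How many of these genes counted as higher depended on the scaling of the libraries. Genes higher by over 2-fold took 38.1 and 36.4% of all counts in the LPS libraries, against 13.6 and 12.8% in the untreated ones, while genes lower by over 2-fold took 2.10 and 2.33% with LPS and 9.31 and 9.43% untreated. The TMM factors were 0.791 and 0.822 with LPS and 1.12 and 1.09 untreated. With TMM 43.7% of called genes were higher. With RLE size factors it was 50% (3192 higher, 3193 lower), with factors from the listed ribosomal protein genes 44.9% (2930 and 3596), with upper-quartile factors 31.8% (2097 and 4506) and with library totals alone 20.0% (1613 and 6442). Upper-quartile factors moved the median of all genes by -0.19 and library totals by -0.45 on the log2 scale, and every fold change below would move by about that much. With library totals 333 called genes changed sign. Without untreated replicate 1 the calls numbered 6569 and without untreated replicate 2 6562; without LPS replicate 1 they numbered 4621 and without LPS replicate 2 5023. In each of these fits the lone library of a group is assumed to vary like the other groups. Between the replicates of a group, 37 genes differed by over 2-fold in the LPS libraries and 666 in the untreated libraries.

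**Figure D1:**
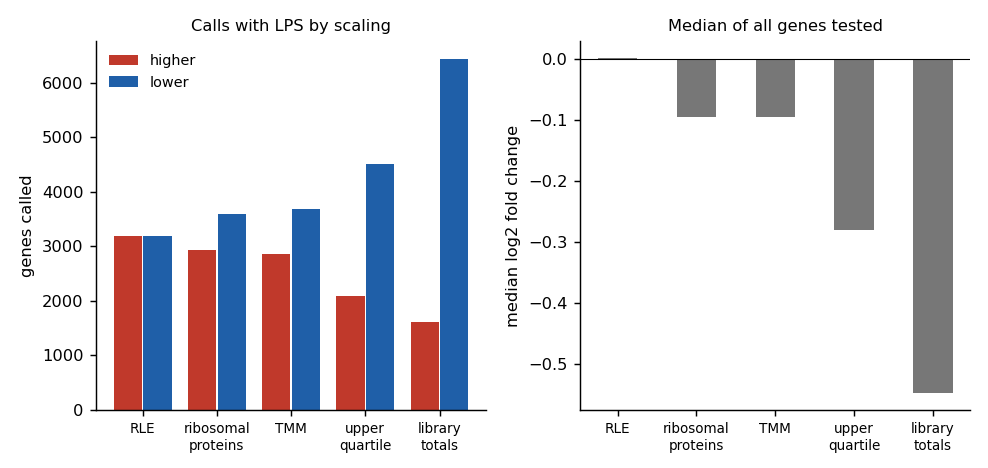
Left, number of genes called higher (red) and lower (blue) with LPS against untreated macrophages under 5 ways of scaling the libraries; right, the median log2 fold change of all genes tested under each. The split runs from 3192 higher and 3193 lower with RLE to 1613 higher and 6442 lower with library totals, and the median moves down with it.

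**Figure D2:**
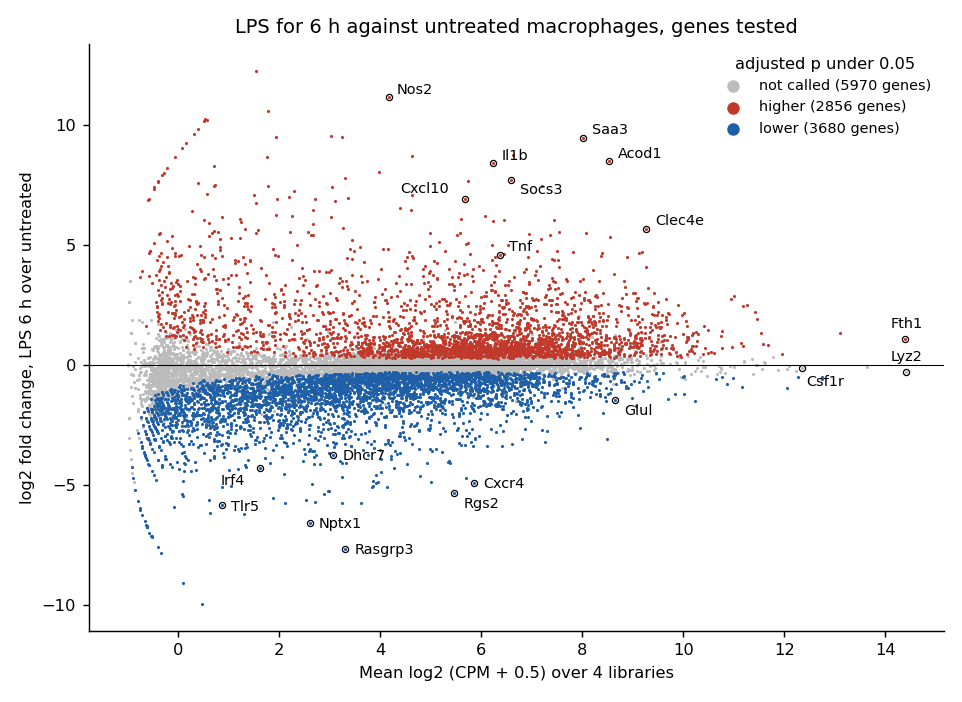
Log2 fold change (LPS for 6 h over untreated) against the mean log2 CPM over the 4 libraries, with 0.5 CPM added; each point is 1 of the 12506 genes tested, red higher, blue lower, grey not called. Rises of over 5 log2 units include Clec4e, Acod1 and Saa3 at high means, whereas Rasgrp3, Nptx1 and the other large falls lie at lower means. The curved strands at the left are genes with 0 counts in 1 group, whose fitted value depends on the added prior count.

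Rises and falls were spread unequally over the expression range. When genes were split into 5 bins of equal size by their untreated level, 34.3% rose and 23.7% fell in the highest bin. In the second lowest bin (mean 2.54 to 13 CPM untreated) 14.9% rose and 43.5% fell. The lowest bin had 18.2% higher and 26.5% lower, so the shares did not change steadily with level. The untreated level that set the bins is also 1 side of each fold change. The 10 called genes with the largest gain in share of counts were Fth1, Acod1, Saa3, Actb, Rnf213, Tnfrsf1b, Clec4e, Hmox1, Ccl9 and Cybb. Together they took 7.56 and 7.16% of counts with LPS and 3.15 and 2.43% untreated. They include the ferritin heavy chain (Fth1), the type 2 TNF receptor (Tnfrsf1b), haem oxygenase 1 (Hmox1) and the catalytic subunit of the phagocyte NADPH oxidase (Cybb). The 10 largest losses among called genes were Ctsd, Psap, Gpnmb, Ftl1, Lgals3, Lipa, Ctsl, Lrp1, Ahnak and Lgmn. Together they fell to 2.17 and 2.05% with LPS, against 4.94 and 4.36% untreated. Csf1r, which was not called and so was left out, lost more of its share of counts than Ctsl or Ahnak. Of these 10, Ctsd, Psap, Lipa, Ctsl and Lgmn encode lysosomal proteins. The falls of Psap and Lrp1 were small (log2 fold change -0.50 and -0.52) and lost their call with RLE factors, with DESeq2, with the replicate block and without any 1 LPS library or untreated replicate 1. Those of Ctsd and Ftl1 lost it with RLE factors, without LPS replicate 2 and without untreated replicate 1, that of Ftl1 also without LPS replicate 1, that of Lgmn without LPS replicate 2, and that of Ahnak with ribosomal scaling and without either LPS library. Ctsd, Ctsl and Ftl1 overlap other annotated transcripts on the same strand, so their counts are less certain.

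Nos2 (chr11:78920787-78960254, plus strand) led the 15 largest rises at a mean log2 CPM of at least 2. Nos2, which encodes the inducible nitric oxide synthase, had 668 and 322 CPM with LPS, against 0.288 and 0.141 CPM untreated, a change of 11.15 on the log2 scale (SE 0.58, adjusted p = 7.9e-05; 10.54 without LPS replicate 1 and 11.84 without untreated replicate 1). The LPS libraries differed from each other by more than they did for most genes. Each was above both untreated libraries by 3 orders of magnitude. Every SE given is the size of the log2 fold change divided by the square root of its F statistic. It is approximate, and with few counts in 1 group it can be smaller than the counting error. Il1a, the gene of the alarm cytokine IL-1α, reached 135 and 79.5 CPM, against 0.12 and 0.164 CPM untreated (log2 fold change 9.52, SE 0.52, adjusted p = 8.9e-05); a non-coding gene overlaps it on the other strand. Cd38, the NAD-consuming ectoenzyme, had 128 and 133 CPM with LPS and 0.192 and 0.164 CPM untreated (log2 fold change 9.49, SE 0.18). Its untreated values rest on 8 and 7 counts, so this SE understates the error. The lowest LPS value of each of these genes was far above its highest untreated value. Saa3, an acute-phase apolipoprotein gene, had 7501 and 6018 CPM with LPS, against 11.2 and 8.14 CPM untreated (log2 fold change 9.45, SE 0.27, adjusted p = 3.9e-05). Acod1, whose enzyme makes itaconate from the TCA cycle intermediate cis-aconitate, likewise had 7322 and 6508 CPM with LPS and 21.6 and 17.1 CPM untreated (log2 fold change 8.48, SE 0.20). Among these 15 were also Ptges (prostaglandin E synthase), Ifi205, Il1b, Lipg (endothelial lipase), Cxcl3, Socs3, Gbp2b, Ccl5, Hp (haptoglobin) and Rasgrp1, with log2 fold changes of 7.26 to 8.75. Among these 15 genes no LPS value overlapped an untreated value, which the rule that chose them required.

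A few genes had no count in either untreated library. Steap4, a metalloreductase, had 477 and 459 counts with LPS and 0 untreated, which makes it at least 459-fold higher when the 2 untreated libraries together are set at 3 counts, the limit that a count of 0 allows (counting error only). By the same floor Csf3 (granulocyte colony-stimulating factor; 169 and 66 counts with LPS) was at least 115-fold higher, the transcriptional repressor gene Gfi1 (133 and 95) at least 112-fold, the cytokine genes Il19 (156 and 66) and Il33 (104 and 68) at least 109-fold and at least 84.3-fold, and the acute-phase gene Saa1 (79 and 72) at least 74-fold; Draxin, Nt5c1a and Tpbpa completed the 9 genes at a mean of 1 CPM or more. In the other direction Rtn4rl1, a Nogo receptor homologue, had 0 counts with LPS and 141 and 137 counts untreated (at least 63.1-fold lower), and Galnt9, a glycosyltransferase, 0 with LPS and 90 and 62 untreated (at least 34.5-fold lower). These 11 genes were not chosen by the rule for named genes but for their counts of 0.

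**Figure D3:**
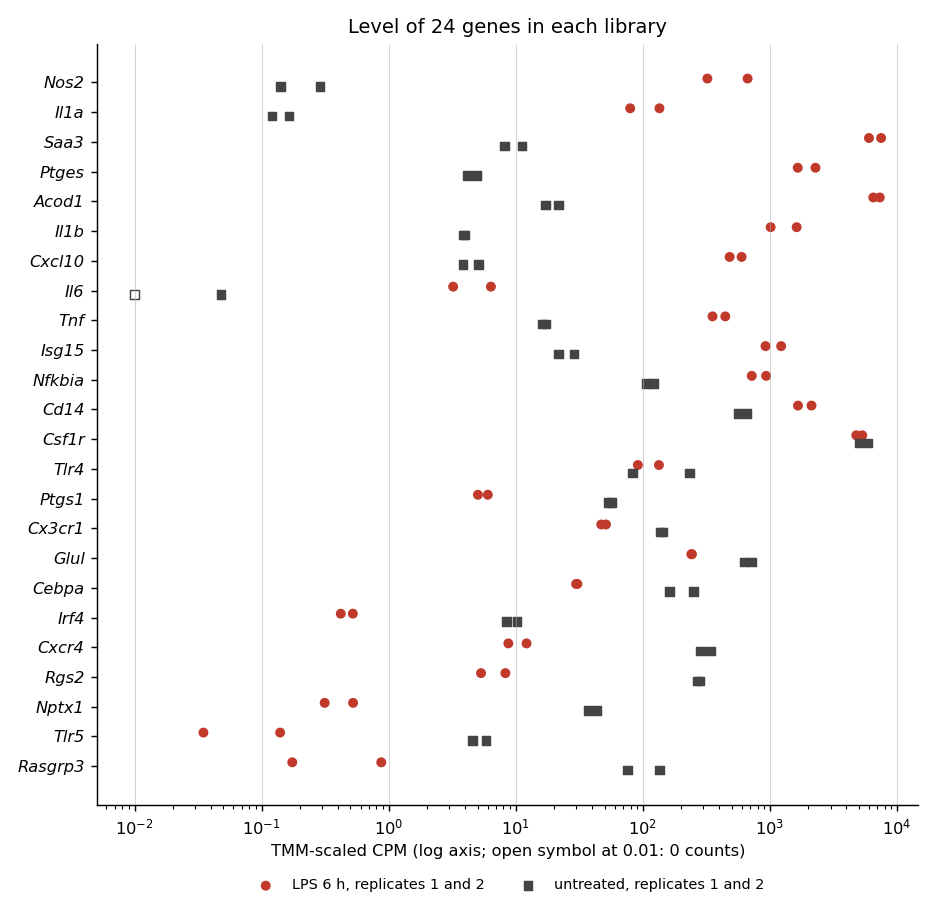
TMM-scaled CPM (log axis) of 24 genes in each of the 4 libraries; red circles are the 2 LPS libraries and black squares the 2 untreated libraries, and the open square is a count of 0. From Nos2 to Cd14 both LPS values lie above both untreated values, at Csf1r and Tlr4 the groups overlap, and from Ptgs1 down both LPS values lie below.

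Rasgrp3 (chr17:75435896-75529054, plus strand) led the 15 largest falls at the same minimum level. This gene of a guanine nucleotide exchange factor for Ras and Rap had 0.174 and 0.873 CPM with LPS, against 75.6 and 136 CPM untreated (log2 fold change -7.65, SE 0.63, adjusted p = 3e-04). Its size rests on few LPS counts (5 and 25): it was -6.91 without LPS replicate 1 and -9.22 without LPS replicate 2. Its paralog Rasgrp1 moved the other way, with 33.5 and 32.8 CPM with LPS and 0.144 and 0.281 CPM untreated (log2 fold change 7.26, SE 0.25). Nptx1, a pentraxin known from neurons, had 0.313 and 0.524 CPM with LPS and 43.6 and 36.9 CPM untreated (log2 fold change -6.58, SE 0.26). Cnr2, the cannabinoid receptor of immune cells, had 1.15 and 0.978 CPM with LPS, against 63.4 and 51 CPM untreated (-5.75, SE 0.20), and E2f2, a cell cycle transcription factor, had 0.383 and 0.838 CPM with LPS and 33.5 and 27 CPM untreated (-5.62, SE 0.32). Rgs2, a brake on G-protein signalling, fell to 5.32 and 8.28 CPM with LPS, against 267 and 280.4 CPM untreated (-5.33, SE 0.24, adjusted p = 5.2e-05). The other 10 of the 15 were Engase, Tmem154, Abcd2 (a peroxisomal fatty acid transporter), Gpr155, Fam214a, Gprc5c, Zfyve28, Rnf144b, St6gal1 (a sialyltransferase) and Lpin1 (a phosphatidate phosphatase), at -5.75 to -4.96; leaving out 1 library moved Gpr155 and E2f2 to -6.22 and -6.29 (without LPS replicate 2) and Abcd2 to -5.10 (without untreated replicate 2).

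The receptor that senses LPS did not itself change detectably. Tlr4 had 91.3 and 134 CPM with LPS and 83 and 233 CPM untreated; the untreated libraries differed more from each other than from the LPS libraries, so the groups overlapped (log2 fold change -0.49, SE 0.55, adjusted p = 0.49; 0.44 without untreated replicate 2). Of 24 tested genes of LPS sensing and its adaptors and kinases, 15 rose and 4 fell (median log2 fold change 0.73). These are 62.5 and 16.7%, against 22.8 and 29.4% of all genes. The co-receptor Cd14 had 2124 and 1662 CPM with LPS, against 663 and 562 CPM untreated (1.63, SE 0.16, adjusted p = 5e-04). Among the signal proteins Irak3, the inhibitory IRAK of macrophages, had the largest rise (592 and 551 CPM with LPS, 51.2 and 51.1 CPM untreated; 3.48, SE 0.10). Ikbke, the inducible IKK-related kinase, followed (2.83), then the adaptor gene Myd88 (2.16), the MAP3 kinase gene Map3k8 (1.66) and Irak2 (1.22). The kinase genes Irak1 and Irak4, Tab1 and the LPS-response modulator Cd180 fell, by 0.35, 0.28, 0.88 and 0.70 on the log2 scale. With library totals the list's split was 8 higher and 7 lower, and with RLE factors or without the IL-4 libraries in the fit 15 higher and 2 lower.

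The other Toll-like receptors diverged. Receptors of bacterial lipopeptides rose: Tlr2 had 1055 and 921 CPM with LPS, against 242 and 227 CPM untreated (2.07, SE 0.11), Tlr1 changed by 2.55 and Tlr6 by 1.64. The double-stranded RNA receptor gene Tlr3 also rose (2.04, SE 0.37). The flagellin receptor gene Tlr5 fell to 0.0348 and 0.14 CPM with LPS (1 and 4 counts), against 5.81 and 4.57 CPM untreated (-5.84, SE 0.38, adjusted p = 0.00015), with -5.18 without LPS replicate 1 and -7.09 without LPS replicate 2. The CpG DNA receptor gene Tlr9 (-1.67) and the bacterial rRNA receptor gene Tlr13 (-1.16) fell too. Tlr7 and Tlr8 were not called, and like Tlr4 they had untreated libraries that differed by more than 2-fold (105 and 265 CPM for Tlr7 and 155 and 478 CPM for Tlr8). The median of the 10 tested was 0.43, and -0.02 with library totals.

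Of the 11 NF-kB and IkB genes 9 rose and 0 fell (median 1.82, and 1.37 with library totals), with Rel and Nfkbid not called. These are 81.8 and 0%, against 22.8 and 29.4% of all genes. Among the genes of the inhibitors, known as NF-kB targets themselves, Nfkbia (IkBα) had 933 and 719.6 CPM with LPS, against 121 and 106 CPM untreated (2.87, SE 0.16, adjusted p = 9.7e-05), Bcl3 changed by 3.05, Nfkbie by 2.91, Nfkbiz by 2.41 and Nfkbib by 1.82. Of the subunit genes Nfkb2 changed by 2.06, Relb by 1.67, Nfkb1 by 1.66 and Rela by 0.96. AP-1, EGR, C/EBP and related factors showed both directions, 9 higher and 7 lower of 20 (45 and 35%, against 22.8 and 29.4% of all genes). Their median was 0.21, and -0.25 with library totals. Batf and Batf2 rose by 3.85 and 3.70, Cebpd and Cebpb by 2.46 and 2.35 and Hif1a by 1.78. Cebpa, the C/EBP factor of resting myeloid cells, fell to 29.8 and 30.5 CPM with LPS, against 250.2 and 161 CPM untreated (-2.77, SE 0.22, adjusted p = 0.00028). Several immediate-early genes were below the untreated level at 6 h: Egr3 (-4.12), Fosb (-3.18), Egr2 (-1.37), Egr1 (-1.10) and Fos (-0.70) fell, whereas Junb rose (1.48) and Jun had a log2 fold change of 0.04 (adjusted p = 0.81).

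Of 22 inflammatory cytokine genes tested 18 rose, with Vegfa and Lif lower and Inhba and Osm not called. Their median was 3.66, also with Csf3 and Il33 at their lower bound. In this list 81.8% rose and 9.09% fell, against 22.8 and 29.4% of all genes. Il1b had 1623 and 1013 CPM with LPS, against 3.98 and 3.82 CPM untreated (8.40, SE 0.31), and its natural antagonist gene Il1rn had 3225 and 2709 CPM with LPS and 126 and 105 CPM untreated (4.69, SE 0.17). Tnf had 445 and 353 CPM with LPS and 17.3 and 16 CPM untreated (4.58, SE 0.16, adjusted p = 3.9e-05). Other well-known products had few counts. Il6 had 183 and 92 counts with LPS, or 6.37 and 3.21 CPM, and 2 and 0 counts untreated, a count ratio of 202 with an exact (Clopper-Pearson) 95% interval of 55.4 to 1680 (counting error only). Il12b had 44 and 21 counts with LPS and 1 and 2 untreated (ratio 31.8, interval 10.4 to 158). Ifnb1, the interferon-β gene, had 10 and 12 counts with LPS and 0 and 1 untreated (ratio 32.3, interval 5.23 to 1330). Il10, the anti-inflammatory cytokine gene, rose to 38.2 and 25.9 CPM with LPS, against 7.68 and 8.44 CPM untreated (1.99). Il27 and Ebi3, whose products pair into IL-27, rose by 4.02 and 2.13. Il12a, Il23a and Csf2 had 3 counts or fewer in each of the 4 libraries and were not tested.

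Chemokine genes were largely higher too: 11 of 12 CC members (91.7%, median 3.05) and 8 of 10 CXC members (80%, median 4.60). Of all genes 22.8% rose. With upper-quartile factors and with library totals 10 CC members were higher and 1 lower. Ccl5 (RANTES) had 2222 and 1597 CPM with LPS, against 12 and 9.97 CPM untreated (7.44, SE 0.24, adjusted p = 3.9e-05), and Ccl9 had 5302 and 4931 CPM with LPS and 742 and 772 CPM untreated (2.76). The CXCR3 ligand gene Cxcl10 had 599 and 482 CPM with LPS and 5.09 and 3.82 CPM untreated (6.92, SE 0.36). The neutrophil attractant genes Cxcl1, Cxcl2 and Cxcl3 rose by 6.18, 5.43 and 7.78. Cxcl14 fell to 1.91 and 2.2 CPM with LPS, against 39.7 and 30.5 CPM untreated (-4.09, SE 0.18), and Cxcl12 fell by 0.60. On the receptor side, the formyl peptide receptor genes Fpr2 (254 and 257 CPM with LPS, 1.56 and 2.25 CPM untreated) and Fpr1 rose by 7.06 and 6.56; Fpr2 overlaps Fpr3 on the same strand. Cxcr4, the receptor of CXCL12, fell to 8.73 and 12.2 CPM with LPS, against 340.4 and 283 CPM untreated (-4.90, SE 0.21, adjusted p = 5.1e-05), and Cx3cr1 fell to 47 and 51.2 CPM with LPS, against 144 and 137 CPM untreated (-1.52). In all 6 of 13 tested chemoattractant receptor genes rose and 2 fell (46.2 and 15.4%, against 22.8 and 29.4% of all genes). With library totals 5 rose and 4 fell.

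The interferon-response list was uniform: all 29 members tested rose, by 2.21 to 6.05 on the log2 scale (median 4.13), and all 29 did so under each of the 5 scalings. For all 29 both LPS values lay above both untreated values, against 32.8% of all genes tested. The list was chosen with earlier results of these data known, so these counts are no independent support. The guanylate-binding protein gene Gbp2 had 1549 and 1259 CPM with LPS, against 23.3 and 19.1 CPM untreated (6.05, SE 0.19). Isg15, the ubiquitin-like modifier, had 1226 and 923 CPM with LPS and 28.7 and 21.6 CPM untreated (5.42, SE 0.23), the antiviral radical-SAM enzyme gene Rsad2 2476 and 2278 CPM with LPS and 58.9 and 59.5 CPM untreated (5.33), and Ifit1 1742 and 1638 CPM with LPS and 71.8 and 61.5 CPM untreated (4.66, SE 0.15). Mx1, Zbp1, Ifi47 and Igtp rose by 4.74, 4.37, 4.36 and 3.88. Close paralogs such as Ifit3 and Ifit3b, Gbp2 and Gbp2b or Mx1 and Mx2 can share reads, and no source used here states how the counting treated such reads. Of 23 genes of the IRF, STAT, JAK and interferon receptor families, which carry interferon signals, 16 rose and 3 fell. These are 69.6 and 13%, against 22.8 and 29.4% of all genes. Among those that rose were Jak2 (3.58), Irf7 (2.95, with 1500 and 1126 CPM with LPS and 186 and 153 CPM untreated), Stat2 (2.51) and Irf1 (1.98). Irf3, the factor that TRIF signalling activates, was at 52.6 and 50.2 CPM with LPS and 50.3 and 45.1 CPM untreated and was not called (0.11, adjusted p = 0.43). Irf4 fell to 0.522 and 0.419 CPM with LPS, against 8.47 and 10.2 CPM untreated (-4.30, SE 0.19).

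Promoters of these genes are shown where they hold a match to an NF-kB or an interferon-stimulated response element (ISRE) motif, because the NF-kB and interferon lists above are named for these factors. Most of the genes with the largest changes held no match to the letters searched, which are given below the stretches. Other forms of these motifs and bases farther from the start were not searched. A promoter without a match may therefore still hold a site of either kind. Of the 15 largest rises 11 had a RefSeq promoter; the NF-kB letters were in those of 2 (Acod1 and Cxcl3) and the ISRE letters in those of 3 (Saa3, Gbp2b and Ifi205), while Cd38, Il1a, Il1b, Ptges, Socs3 and Rasgrp1 held neither. Of the 15 largest falls 12 had a promoter, with the NF-kB letters in 0 and the ISRE letters in 1, Rasgrp3, at the second of its start sites but not at the first. Acod1, Cxcl3, Saa3 and Rasgrp3 are shown from these, and Cxcl10, Ifit1 and Nfkbia were added from the chemokine, interferon and NF-kB lists because they hold matches, so the 7 stretches are no sample of the promoters of changed genes. Each stretch is RefSeq sequence (GRCm38.p6), on the strand of the gene, from 20 bases before the first match to the base before the RefSeq transcript start, in lower case with the matches in capitals.
Saa3, chr7:46715677-46715821, minus strand: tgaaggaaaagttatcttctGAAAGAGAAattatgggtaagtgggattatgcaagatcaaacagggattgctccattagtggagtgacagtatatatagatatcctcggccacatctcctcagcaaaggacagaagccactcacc
Acod1, chr14:103046907-103047011, plus strand: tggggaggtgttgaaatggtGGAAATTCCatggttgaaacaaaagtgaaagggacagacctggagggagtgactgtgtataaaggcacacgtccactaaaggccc
Cxcl3, chr5:90786009-90786100, plus strand: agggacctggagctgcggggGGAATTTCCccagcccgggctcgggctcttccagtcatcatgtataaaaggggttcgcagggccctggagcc
Cxcl10, chr5:92348890-92349122, minus strand: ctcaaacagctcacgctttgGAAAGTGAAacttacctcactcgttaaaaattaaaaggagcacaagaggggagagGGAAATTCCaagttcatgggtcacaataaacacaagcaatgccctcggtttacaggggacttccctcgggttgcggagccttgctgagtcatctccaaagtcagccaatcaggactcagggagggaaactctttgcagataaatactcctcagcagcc
Ifit1, chr19:34640760-34640888, plus strand: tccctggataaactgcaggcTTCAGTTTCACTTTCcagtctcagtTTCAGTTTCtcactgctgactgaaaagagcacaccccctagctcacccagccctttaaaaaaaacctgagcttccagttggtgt
Nfkbia, chr12:55492648-55492845, minus strand: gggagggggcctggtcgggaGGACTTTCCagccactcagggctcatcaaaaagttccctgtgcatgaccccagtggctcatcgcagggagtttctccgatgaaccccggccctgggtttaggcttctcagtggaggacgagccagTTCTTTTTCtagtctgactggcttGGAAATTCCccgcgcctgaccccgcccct
Rasgrp3, chr17:75465463-75465537, plus strand: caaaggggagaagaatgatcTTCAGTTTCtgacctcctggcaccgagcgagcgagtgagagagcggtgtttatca
Matches to GGANNTTCC (NF-kB) begin 85 bases before the start of Acod1, 72 before that of Cxcl3, 158 before that of Cxcl10, and 178 and 29 before that of Nfkbia. Matches to GAAANNGAA or its reverse complement (ISRE) begin 125 bases before the start of Saa3, 213 before that of Cxcl10, 109, 103 and 84 before that of Ifit1 (the first pair overlaps), 53 before that of Nfkbia and 55 before that start of Rasgrp3. A match is a description of these letters and not a bound site.

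Counted over both strands of 300-base windows (250 bases before to 50 after each RefSeq start; 12335 windows of 9659 genes tested, of which 174 belong to genes higher and 88 to genes lower by over 16-fold), the NF-kB letters were in 12.6% of windows of genes higher by over 16-fold, in 7.08% of those higher by over 2-fold, in 1.14% of those lower by over 16-fold and in 4.06% of those lower by over 2-fold, against 4.65% of all windows. The ISRE letters were in 19.0% of windows of genes higher by over 16-fold, in 13.2% of those higher by over 2-fold, in 7.95% of those lower by over 16-fold and in 5.56% of those lower by over 2-fold, against 7.37% of all windows. The AP-1 letters TGACTCA were in 14.4% of windows of genes higher by over 16-fold, in 4.55% of those lower by over 16-fold and in 3.63% of those lower by over 2-fold, against 3.91% of all windows. The TATA box letters TATAAA were in 17.8% of windows of genes higher by over 16-fold and in 11.4% of those lower by over 16-fold, against 7.11% of all windows. The cAMP response letters TGACGTCA were in 1.72% of windows of genes higher by over 16-fold and in 1.14% of those lower by over 16-fold, against 3.04% of all windows. All of these motifs were searched on both strands, and matches to different motifs could overlap. Base composition moved with these shares: the median GC content was 51.3% in windows of genes higher by over 16-fold, 59.0% in those higher by over 2-fold, 57.5% in those lower by over 16-fold and 60.7% in all windows, and its part in the shares was not tested. By list, 14 of 26 windows of the interferon-response genes (53.8%) held the ISRE letters, and 4 of 7 windows of the CXC chemokine genes (57.1%) and 4 of 12 of the NF-kB family genes (33.3%) held the NF-kB letters. The NF-kB letters were also in 5 of 26 interferon-response windows (19.2%), 4 of 20 inflammatory cytokine windows (20.0%) and 1 of 8 CC chemokine windows (12.5%). The ISRE letters were also in 3 of 7 CXC chemokine windows (42.9%) and 2 of 12 NF-kB family windows (16.7%). They were in 1 of 8 CC chemokine windows (12.5%) and 1 of 20 inflammatory cytokine windows (5.0%). Of the windows of cholesterol synthesis genes, 15 of 18 (83.3%) held CCAAT, against 37.3% of all windows, and 0 held the NF-kB letters.

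Genes of inhibitors of both pathways were among those that rose. Of 23 feedback inhibitor genes tested 14 rose, each by over 2-fold, and 5 fell. These are 60.9 and 21.7%, against 22.8 and 29.4% of all genes. Socs3, the inhibitor of receptors that signal through gp130 and JAKs, had 1597 and 1130 CPM with LPS, against 6.55 and 6.36 CPM untreated (7.72, SE 0.23, adjusted p = 3.9e-05). Socs1 rose by 5.55. Tnfaip3, which encodes the deubiquitinase A20, had 620.5 and 490.3 CPM with LPS and 59.8 and 61.6 CPM untreated (3.19), its partner Tnip1 changed by 3.52, and the PD-1 ligand gene Cd274 by 4.07. The mRNA-destabilising protein genes Zc3h12a and Zfp36 rose by 2.35 and 1.48. Sigirr, a receptor that restrains TLR signalling, fell to 0.104 and 0.105 CPM with LPS, against 0.984 and 0.797 CPM untreated (-3.05), and Otud7b fell by 1.22.

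Among effector enzymes 16 of 20 rose and 3 fell, with a median of 4.13 (80 and 15%, against 22.8 and 29.4% of all genes). The prostanoid genes split. Ptgs2 (cyclooxygenase 2) had 661 and 483 CPM with LPS, against 5.38 and 10.2 CPM untreated (6.20, SE 0.48), and Ptges, which acts after it, 2282 and 1655 CPM with LPS and 4.97 and 4.15 CPM untreated (8.75). The constitutive cyclooxygenase gene Ptgs1 fell to 6.02 and 5.03 CPM with LPS, against 56.9 and 53.1 CPM untreated (-3.32, SE 0.15, adjusted p = 5.2e-05), and the leukotriene pathway genes Alox5 and Alox5ap fell by 3.03 and 1.04. Genes of arginine and cofactor supply to nitric oxide synthase rose: the transporter gene Slc7a2 had 834 and 769 CPM with LPS, against 16.8 and 20.1 CPM untreated (5.44), the resynthesis enzyme gene Ass1 changed by 3.5, and Gch1, which supplies the cofactor of nitric oxide synthase, by 2.87. Arg1, the competing arginase, rose as well, to 41.4 and 32.3 CPM with LPS, against 3.07 and 2.39 CPM untreated (3.75, SE 0.19). Ch25h (cholesterol 25-hydroxylase), Hdc (histidine decarboxylase) and Sod2 (mitochondrial superoxide dismutase) changed by 6.95, 7.02 and 4.51.

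Of 19 antimicrobial and recognition genes 14 rose and 1 fell (73.7 and 5.26%, against 22.8 and 29.4% of all genes). The C-type lectin receptor gene Clec4e (Mincle) had 4451 and 4314 CPM with LPS, against 88.1 and 84.6 CPM untreated (5.67, SE 0.12), Lcn2, the siderophore-binding lipocalin gene, changed by 6.93, Cfb of the complement system by 5.57 and the scavenger receptor gene Marco by 3.83. The lysozyme gene Lyz2 was at 19930 and 19270 CPM with LPS and 25130 and 22490 CPM untreated and was not called (-0.28, adjusted p = 0.11), and Clec7a (Dectin-1) fell by 1.10. Of 17 genes of inflammasomes and lytic cell death 14 rose (82.4%, against 22.8% of all genes). Among them were the caspase genes Casp4 and Casp1 (3.80 and 2.69), Nod2 (3.73) and the necroptosis effector gene Mlkl (3.36). Nlrp3 rose by 3.0 (593 and 493 CPM with LPS, 65.8 and 70 CPM untreated). Nlrp1b fell to 4 and 7.02 CPM with LPS, against 49 and 96.1 CPM untreated (-3.72, SE 0.43). Apoptosis regulators rose in 11 of 18 and fell in 3 (61.1 and 16.7%, against 22.8 and 29.4% of all genes). Fas rose by 3.70 and so did the inhibitors Cflar (2.78), Bcl2a1b (3.28) and Birc3 (1.91) and the TNF receptor adaptor gene Traf1 (3.92), while Bcl2 and Pmaip1 fell by 1.41 and 1.69.

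Genes of antigen presentation by MHC class I were largely higher (86.7% rose and 0% fell, against 22.8 and 29.4% of all genes). Of 15 class I genes 13 rose and 0 fell (median 1.92): the transactivator gene Nlrc5 by 3.48, the peptide transporter gene Tap1 by 3.04, the proteasome genes Psme2 and Psmb10 by 2.77 and 2.60, and B2m by a smaller factor, with 4508 and 4220 CPM with LPS and 2526 and 2416 CPM untreated (0.82). Of 15 class II and costimulation genes 9 rose and 2 fell (6 and 5 with library totals). In this list 60% rose and 13.3% fell. Cd40 had 373 and 256 CPM with LPS, against 7.1 and 6.8 CPM untreated (5.50, SE 0.22), and the adhesion molecule genes Vcam1 and Icam1 changed by 3.90 and 3.17. Cd86 rose by 1.09, whereas its relative Cd80 fell to 1.36 and 1.36 CPM with LPS, against 4.25 and 4.76 CPM untreated (-1.73). Ciita, the class II transactivator gene, fell to 2.75 and 3.46 CPM with LPS, against 21.1 and 19 CPM untreated (-2.69, SE 0.17), while the class II genes H2-Ab1 and Cd74 rose by 1.16 and 0.75.

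Genes that mark macrophages as such changed in both directions. The M-CSF receptor gene Csf1r was at 5329 and 4783 CPM with LPS and 5861 and 5056 CPM untreated and was not called (-0.11, SE 0.14; 0.10 without untreated replicate 1). Of the 18 identity genes 8 rose and 3 fell (44.4 and 16.7%, against 22.8 and 29.4% of all genes). Their median was 0.38. With library totals 5 rose and 6 fell (median -0.07). Spi1 (PU.1), the lineage factor, had 1343 and 1125 CPM with LPS and 456 and 362 CPM untreated (1.59, SE 0.16), and Maf changed by 1.14. The efferocytosis receptor gene Mertk fell to 11.6 and 18.3 CPM with LPS, against 85.7 and 118 CPM untreated (-2.76, SE 0.27), and with it the integrin gene Itgb5 (-1.99), Trem2 (-1.10), the bridging protein genes Gas6 (-0.70) and Mfge8 (-0.53) and Pparg (-2.14), and in all 7 of 20 efferocytosis and scavenging genes fell and 3 rose (Trem2 stands in another list). These shares, 35% and 15%, lie near the 29.4 and 22.8% of all genes, and the number that fell was 5 with RLE factors and 15 with library totals, with 3 higher in each. One that rose, the phosphatidylserine receptor gene Timd4, had 21 and 18 counts with LPS and 2 and 0 untreated (ratio 28.7, interval 7.42 to 245, counting error only). The complement genes C1qa, C1qb and C1qc lay between -0.09 and 0.07 and were not called. Of 19 Fc, TREM, SIGLEC and related receptor genes 13 rose and 3 fell (68.4 and 15.8%, against 22.8 and 29.4% of all genes). The inhibitory Fc receptor gene Fcgr2b had 1870 and 1712 CPM with LPS, against 39.3 and 40.6 CPM untreated (5.48, SE 0.11), and the activating Fcgr4, Fcgr1 and Fcgr3 changed by 2.81, 2.61 and 1.22. Inhibitory receptor genes of the CD300 family fell, Cd300a by 3.27 and Cd300lf by 2.11.

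Some genes known as markers of the IL-4 response also moved with LPS, 8 of 18 higher and 4 lower (44.4 and 22.2%, against 22.8 and 29.4% of all genes tested); with library totals 6 were higher and 7 lower. Arg1, described above, was lower with LPS than with IL-4 (1074 and 1160 CPM with IL-4). The mannose receptor gene Mrc1 had 439 and 460.0 CPM with LPS, against 207 and 291 CPM untreated (0.85, adjusted p = 0.017), and lost its call without either LPS library and with library totals. Klf4 fell to 6.05 and 6.46 CPM with LPS, against 33.1 and 32.6 CPM untreated (-2.39), and was at 90.6 and 91 CPM with IL-4. Retnla, with 0 and 1 counts with LPS and 0 untreated, was at the floor, and Chil3 was not called (-0.04, adjusted p = 0.92). Against IL-4 directly, 6645 genes (53.1%) differed at an adjusted p under 0.05. Of all genes tested 23.4% were higher and 29.7% lower with LPS than with IL-4, in a comparison that shares the LPS libraries with the one against untreated cells. Of the 1418 genes higher than untreated by over 2-fold, 1286 (90.7%) were also higher than with IL-4 and 42 were lower. Of the 2082 lower by over 2-fold, 1778 (85.4%) were also lower than with IL-4 and 14 were higher. Rasgrp1, Socs1 and Arg1, higher than untreated, were lower with LPS than with IL-4, by log2 differences of -1.40, -1.27 and -4.92, and Cx3cr1, lower than untreated, was higher with LPS than with IL-4 (5.14 and 5.69 CPM with IL-4; 3.18); these 4 were chosen after their values were seen. Of the 29 interferon-response genes 29 were higher with LPS than with IL-4, as were 21 of 21 glycolysis genes, and 18 of 21 cholesterol synthesis genes were lower. Of the 18 IL-4 response genes 16 were lower with LPS than with IL-4 and 1 was higher.

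**Figure D4:**
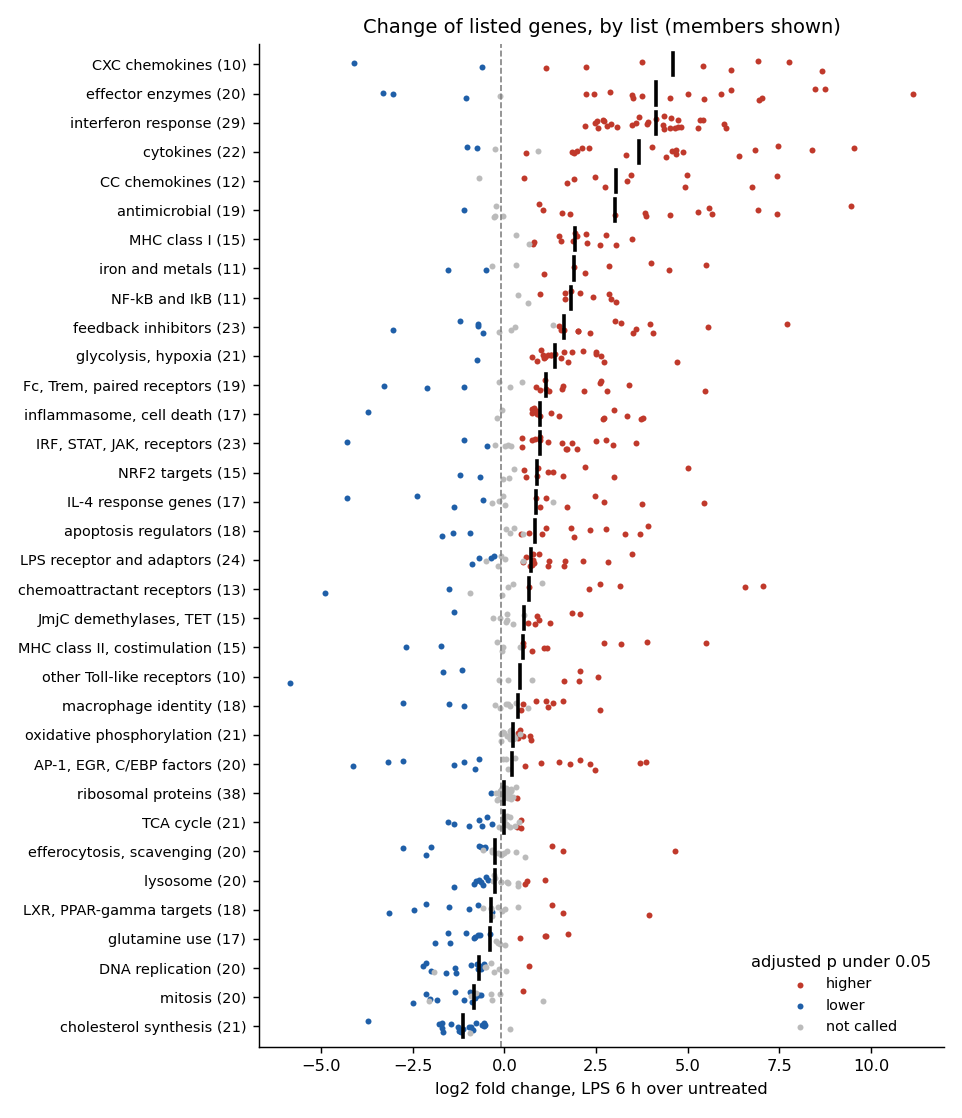
Log2 fold change (LPS for 6 h over untreated) of the members of 34 gene lists, sorted by list median; each point is a gene, red higher, blue lower, grey not called, the black bar is the list median, the dashed line the median of all genes tested (-0.10), and the number of members shown is in parentheses. Csf3 and Il33 are drawn at their lower bound and Retnla, at the floor in both groups, is left out; the 29 interferon-response genes all lie to the right of 2, and 19 of 21 cholesterol synthesis genes are called lower.

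Genes of central carbon metabolism moved in different directions. Of 21 genes of glycolysis and the hypoxia response 20 rose (95.2%, against 22.8% of all genes), Vegfa being the exception. Their median was 1.38, and 19 rose with upper-quartile factors and with library totals. Pfkfb3, whose product makes the allosteric activator of phosphofructokinase, had 1309 and 999.5 CPM with LPS, against 46.1 and 42.1 CPM untreated (4.71, SE 0.17, adjusted p = 3.9e-05). The glucose transporter gene Slc2a1 had 806 and 626 CPM with LPS and 131 and 98.2 CPM untreated (2.64), and the lactate exporter gene Slc16a3 changed by 2.50. Along the pathway the glycolytic enzyme genes rose by 0.75 (Aldoa) to 2.15 (Pfkl), with Gapdh at 1.54 (1351 and 1184 CPM with LPS, 481 and 391 CPM untreated) and Ldha at 1.63.

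The TCA cycle list also holds genes of cytosolic enzymes such as Idh1, which is not part of the cycle itself. In this list 3 of 21 genes rose (14.3%, against 22.8% of all genes), by 0.35 to 0.47. A further 7 fell (33.3%, against 29.4% of all genes), and the list median was -0.01. The isocitrate dehydrogenase genes Idh1 and Idh2, which make α-ketoglutarate from isocitrate with NADP, fell to 118 and 139.6 CPM and 21.7 and 21.1 CPM with LPS, against 315 and 441 CPM and 60.3 and 50.1 CPM untreated (-1.55 and -1.37, SE 0.18 and 0.13). Idh3a, of the NAD-dependent enzyme, changed by 0.44 and Idh3g by -0.70. Succinate dehydrogenase genes were not called, with log2 fold changes of -0.14 to -0.01, and the TCA counts were 4 higher and 6 lower with RLE factors, 0 and 7 with upper-quartile factors and 0 and 15 with library totals. Oxidative phosphorylation genes lay just above the median of all genes. Of 21, 6 rose (28.6%, against 22.8% of all genes), none by more than 0.73, and 0 fell. That count depends on the scaling, with 1 higher under upper-quartile factors and 0 higher and 7 lower under library totals, and it was 2 higher when the IL-4 libraries were left out of the fit.

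Of 17 genes of glutamine metabolism, the subject of the series, 9 fell and 4 rose (12 and 3 with library totals). That is 52.9% lower and 23.5% higher, against 29.4 and 22.8% of all genes. Glul (glutamine synthetase) fell to 241 and 243 CPM with LPS, against 717 and 624 CPM untreated (-1.47, SE 0.11, adjusted p = 2e-04); other transcripts overlap it on both strands. The transaminase genes Got1 and Gpt2 fell by 1.90 and 1.55, and the transporter genes Slc38a2, Slc38a1 and Slc1a5 by 1.04, 0.84 and 0.80. Glud1 (glutamate dehydrogenase) fell by 0.40. The amino acid exchanger genes Slc7a5 and Slc3a2 and the serine pathway gene Psat1 rose by 1.11, 1.14 and 1.73. Among the dioxygenases that use α-ketoglutarate, the JmjC histone demethylases and TET enzymes, 7 of 15 genes rose and 1 fell (6 and 3 with library totals). That is 46.7% higher and 6.67% lower, against 22.8 and 29.4% of all genes. Kdm6b (Jmjd3), a histone H3 lysine 27 demethylase, had 35 and 31.9 CPM with LPS, against 10.6 and 7.97 CPM untreated (1.85, SE 0.16), Kdm5b changed by 1.24, Tet2 by 2.07 (SE 0.54, from 19.6 and 57.8 CPM in the untreated libraries, which differed widely) and Kdm2b by -1.36.

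Cholesterol synthesis was the list with the lowest median (-1.14): 19 of 21 genes fell, 0 rose, and Idi1 and Srebf2 were not called. In this list 90.5% fell and 0% rose, against 29.4 and 22.8% of all genes. With RLE factors 17 fell. Dhcr7, the last enzyme of the pathway, fell to 1.77 and 2.34 CPM with LPS, against 29.4 and 25.1 CPM untreated (-3.72, SE 0.18, adjusted p = 6.3e-05). Insig1, Msmo1, Lss and Hmgcs1 fell by 1.78, 1.70, 1.70 and 1.68. Among targets and partners of LXR and PPAR-γ, Angptl4, Scd1 and Pparg fell by 3.13, 2.46 and 2.14, whereas the long-chain acyl-CoA synthetase gene Acsl1 rose to 1210 and 1108 CPM with LPS, against 77.8 and 73.4 CPM untreated (3.94, SE 0.11), and Abca1, the cholesterol exporter, by 1.30; the list had 3 higher and 7 lower of 18 (16.7 and 38.9%, against 22.8 and 29.4% of all genes). With upper-quartile factors it had 3 higher and 10 lower, and with library totals 3 and 14.

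**Figure D5:**
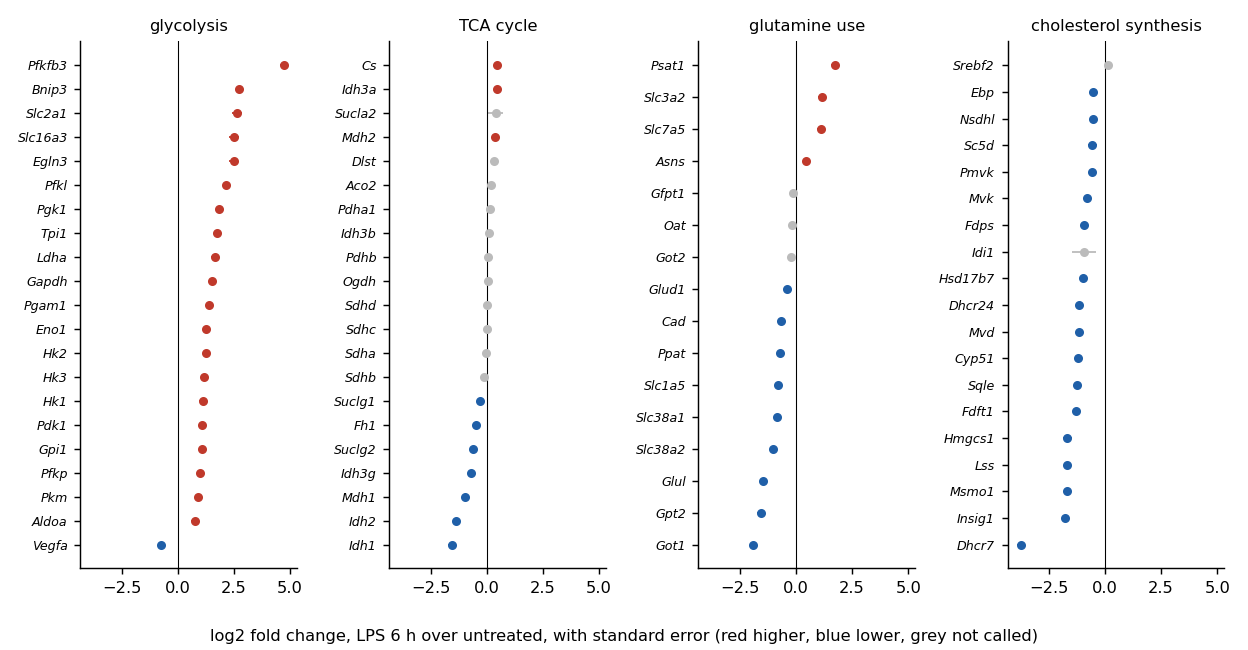
Log2 fold change (LPS for 6 h over untreated) for the genes of 4 metabolic lists, red higher, blue lower, grey not called. Bars are the approximate SE derived from the F statistic. Where no bar shows, this SE is smaller than the symbol. All glycolysis genes shown except Vegfa lie on the higher side, all cholesterol synthesis genes shown except Idi1 and Srebf2 are called lower, and the TCA cycle and glutamine lists hold both directions. A few list members are not shown.

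Genes of oxidant defence were largely higher (66.7% rose and 13.3% fell, against 22.8 and 29.4% of all genes). Of 15 NRF2 targets and regulators 10 rose and 2 fell: the cystine transporter gene Slc7a11 had 462 and 584 CPM with LPS, against 13.5 and 18.9 CPM untreated (5.01, SE 0.27), Gsr (glutathione reductase) changed by 3.0 and Txnrd1 by 1.32, yet Nqo1, a standard NRF2 target, fell by 1.21 and Gclc by 0.65. Of 11 iron and metal genes 7 rose and 2 fell (63.6 and 18.2%). The ferritin heavy chain gene (Fth1) had 32590 and 30150 CPM with LPS and 17130 and 12450 CPM untreated (1.08, SE 0.18), while the light chain gene Ftl1 fell by 0.49. The iron exporter gene Slc40a1 (ferroportin) fell to 22.2 and 25.4 CPM with LPS, against 59.5 and 78.3 CPM untreated (-1.53), the importer genes Slc39a14 and Slc11a2 rose by 4.01 and 1.90, and the metallothionein genes Mt2 and Mt1 by 5.49 and 2.86. Lysosome genes had 8 of 20 lower and 3 higher, with Npc1 (-1.36), the lysosomal regulator gene Tfeb (-0.82) and Ctsl (-0.78) lower and Ctsz (1.10) higher; with RLE factors the split was 5 and 5, and with library totals 15 lower and 1 higher. The shares, 40% lower and 15% higher, compare with 29.4 and 22.8% of all genes.

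Cell cycle genes were largely lower. Of 20 DNA replication genes 12 fell and 1 rose (median -0.70, and 18 fell with library totals). Of 20 mitosis genes 12 fell and 1 rose (median -0.84, and 15 fell with library totals). In each list 60% fell and 5% rose, against 29.4 and 22.8% of all genes. The replicative helicase genes Mcm2 and Mcm7 fell to 3.31 and 2.97 CPM and 4.94 and 4.37 CPM with LPS, against 16.1 and 13 CPM and 21.6 and 19.2 CPM untreated (-2.22 and -2.13), and the mitotic kinase genes Bub1b, Aurkb and Cdk1 by 2.49, 2.15 and 1.84. Ccne1 and Tpx2 were the ones that rose, by 0.66 and 0.50. The proliferation marker gene Mki67 was not called: it had 26.9 and 50.4 CPM with LPS and 6.91 and 30.3 CPM untreated, and both groups varied widely. Histone cluster genes made 0.00573 and 0.00564% of counts with LPS, against 0.0229 and 0.0186% untreated. These are small shares of library totals without TMM scaling, so they do not compare directly with the fold changes above. Ribosomal protein genes lay within -0.37 to 0.36 under TMM scaling, with 1 of 38 higher (Rpl27), 1 lower (Rpl3) and a median of 0.00; with library totals their median was -0.45 and 28 fell.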

How the data were processed

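Raw counts per gene symbol were deposited by the authors in a table of 6 libraries; per the submitters' processing notes the tools and build were STAR, HTSeq and mm10, and no source used here gives their versions, the annotation or the strand setting of the counting. Per the labels the libraries were made with a stranded kit. Of 238 named genes, 237 matched GENCODE vM21 (GRCm38); 61 share exonic bases with a gene on the opposite strand and 14 with one on their own, so their counts are less certain.

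Counts were tested with edgeR 4.0.16 (R 4.3.3) by the quasi-likelihood F test on all 6 libraries, with TMM factors and the default filterByExpr, which kept 12506 of 23052 symbols (16715 had a count above 0), and p-values were Benjamini-Hochberg adjusted over all of them. Fold changes are LPS over untreated. Each SE is the size of the log2 fold change over the square root of its F statistic, an approximation. The scripts were tested on simulated data in which few genes changed, in both directions alike. That simulation does not test the choice of scaling. Alternatives were RLE, upper-quartile, total and ribosomal protein scaling, no filter or at least 1 CPM in 2 libraries, DESeq2 1.42.0, limma-voom (limma 3.58.1), glmTreat, a replicate block, the LPS and untreated libraries alone, and leaving out each library. At 34227368 to 39760356 counts a library, ratios of few counts carry exact 95% intervals, which cover counting error only.

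Named genes were the 15 largest rises and falls at a mean log2 CPM of at least 2 with groups that do not overlap. They were also the 10 largest gains and losses in share of counts. Both choices were made among called genes. The 6 members of each of 34 lists with the smallest p and a fixed set of well-known genes were added. Other list members are named where their list is described, after their values were seen. The members and lists were chosen with earlier results of these data known. Gbp5, Il4i1, Bcl2a1a and Bcl2a1d were not analysed here, and a few list members, which stay in the counts and medians, are not reported here by name. Promoter windows are from RefSeq, matched by symbol for 9659 of the genes tested (1977 with more than 1 window).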

Additional observations from a re-analysis of the deposited data

How the results depend on the processing

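The split of the calls depended on the scaling. With library totals alone 1613 genes were higher and 6442 lower, 3583 of them by over 2-fold, and the small changes of Atp5a1 (-0.071), Atp5o (-0.07), Cox6a1 (-0.023), Rpl18 (-0.23), Rpl27 (-0.10) and Rps9 (-0.13) changed sign. Of the 238 named genes 223 kept their direction and call with library totals, 232 with RLE factors and 231 with upper-quartile factors, and 238 did with limma-voom. DESeq2 called 6272 genes, limma-voom 6460, and the fit without the IL-4 libraries 5613. Against a fold change of 2 instead of no change, edgeR's glmTreat called 2141 genes, 960 higher and 1181 lower (all 1181 lower by over 2-fold), and 2409 against IL-4. Leaving out 1 library at a time gave 4621 to 6569 called genes; Csf1r, at -0.11, lay between -0.21 (without untreated replicate 2) and 0.10 (without untreated replicate 1), and Tlr4, at -0.49, between -0.95 (without untreated replicate 1) and 0.44 (without untreated replicate 2), neither being called. Calls of Atp5a1, Atp5o, Cox6a1 and Rpl27 were lost without any 1 of the LPS or IL-4 libraries or untreated replicate 2, and that of Rpl3 without any 1 of the LPS or IL-4 libraries or untreated replicate 1; that of Fh1 was lost without either LPS library. The cause was not tested.

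The labels do not say that replicate numbers pair the samples. With the replicate number as a block 6033 genes were called. The deviations of same-numbered libraries correlated across genes by 0.665 between LPS and untreated, by -0.522 between LPS and IL-4 and by -0.781 between IL-4 and untreated; with the IL-4 numbers crossed, an alternative chosen after seeing the data, 7992 genes were called. Few counts limit the precision of some values: Il6, Il12b, Ifnb1 and Timd4 rest on 1 to 3 untreated counts.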

Other observations

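Among genes outside the lists, Mir155hg, the host transcript of the inflammatory microRNA miR-155, had 23 and 20.7 CPM with LPS, against 0.12 and 0.234 CPM untreated (log2 fold change 6.92, edgeR adjusted p = 1e-04). Rn7sk, the 7SK small nuclear RNA that holds the elongation factor P-TEFb inactive, had 0.104 and 0.0349 CPM with LPS and 3.84 and 3.38 CPM untreated (-5.63, edgeR adjusted p = 0.00011). All its values are low and those with LPS lie near the floor, so the size of its fall is uncertain. How well these libraries capture Rn7sk was not tested. Mir155hg and Rn7sk were picked after their values were seen.

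The replicates of a group differed by transcript length. From the shortest to the longest of 5 bins of equal size (12166 genes), the median log2 difference of replicate 2 over replicate 1 ran from -0.10 to 0.14 in the LPS libraries and from -0.12 to 0.23 in the untreated libraries. The median log2 fold change of LPS over untreated was -0.03 in the shortest bin and -0.12 in the longest, and 24.1% of genes in the shortest bin and 19.1% in the longest were higher. The part of length in the results was not tested.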
